A study of Mus musculus with 12 samples.

Results

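The genes followed here were Lipg, Lpl, Lipa, Pnpla2, Abca1, Abcg1, Apoe, Plin2 and Fabp5, 9 of the 21853 genes listed for whole bone marrow of B6 mice. They were picked by name as lipases, lipid exporters and lipid storage or carrier genes, with earlier results of these libraries known. The values of Lipg, for which the group is named, are therefore given as a description without a test. All 9 passed the filter on low values (at least 1 FPKM in at least 3 of the 12 libraries), which kept 10994 genes for testing. FPKM is a read level scaled to transcript length and to library size, so levels of different genes can be compared.

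Bulk marrow was sequenced in 4 groups of 3 libraries. Control mice were not irradiated, and the labels name no vehicle for them. TBI mice had total body irradiation with 5 Gy of gamma rays at 0.66 Gy/min and were gavaged with 100 µL of olive oil. TBI+DEIX mice had the same irradiation and then deinoxanthin (DEIX in the labels), a carotenoid of Deinococcus bacteria, by mouth at 25 mg/kg once daily for 14 days. DEIX mice had that compound without irradiation. Marrow was taken 14 days after irradiation, sex and age are not in the labels, and because olive oil is named for the TBI group alone, irradiation or DEIX and the vehicle cannot be told apart. Nothing in the labels says that the libraries of a group came from separate animals, so p-values measure the spread between these libraries only.

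Lipases release fatty acids from stored or circulating lipid. Lipg encodes endothelial lipase, a secreted phospholipase that acts on high-density lipoprotein, and Lpl encodes lipoprotein lipase, which clears triglyceride from chylomicrons and very-low-density lipoprotein at the capillary wall. Lipa encodes the lysosomal acid lipase that frees cholesterol and fatty acids from ingested lipoproteins, and Pnpla2 encodes adipose triglyceride lipase, which opens the breakdown of lipid droplets. Abca1 and Abcg1 export cholesterol to acceptor particles, Apoe encodes a lipoprotein ligand made abundantly by macrophages, and all 3 are textbook targets of the liver X receptors (LXR), nuclear receptors that sense oxidised sterols. Plin2 coats lipid droplets, and Fabp5 carries fatty acids within the cell. In marrow, sterol efflux through Abca1, Abcg1 and Apoe is known to restrain the expansion of myeloid progenitors.

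Promoter windows are shown for 3 members that the results turn on, Abca1 and Apoe because they had the lowest TBI values relative to control, and Plin2 because its TBI+DEIX libraries all stood above those of TBI and of control. Each runs from 250 bases before to 50 after the annotated start (RefSeq, GRCm38.p6), 5′ to 3′ on the gene's strand, which is the minus strand in each case. The windows are chr4:53159846-53160145 for Abca1, chr7:19699139-19699438 for Apoe and chr4:86670010-86670309 for Plin2. Capitals mark the motif matches described after them.
Abca1: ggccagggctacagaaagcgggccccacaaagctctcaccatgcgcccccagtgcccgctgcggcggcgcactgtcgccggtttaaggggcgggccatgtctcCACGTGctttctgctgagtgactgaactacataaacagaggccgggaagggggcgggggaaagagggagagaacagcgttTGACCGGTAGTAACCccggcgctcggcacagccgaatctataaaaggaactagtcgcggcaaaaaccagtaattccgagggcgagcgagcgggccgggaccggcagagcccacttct
Apoe: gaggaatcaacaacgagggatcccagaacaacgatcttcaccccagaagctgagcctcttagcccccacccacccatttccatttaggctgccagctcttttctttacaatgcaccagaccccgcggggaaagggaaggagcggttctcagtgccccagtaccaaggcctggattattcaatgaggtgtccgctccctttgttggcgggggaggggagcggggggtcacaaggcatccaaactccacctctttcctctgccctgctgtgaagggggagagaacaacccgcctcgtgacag
Plin2: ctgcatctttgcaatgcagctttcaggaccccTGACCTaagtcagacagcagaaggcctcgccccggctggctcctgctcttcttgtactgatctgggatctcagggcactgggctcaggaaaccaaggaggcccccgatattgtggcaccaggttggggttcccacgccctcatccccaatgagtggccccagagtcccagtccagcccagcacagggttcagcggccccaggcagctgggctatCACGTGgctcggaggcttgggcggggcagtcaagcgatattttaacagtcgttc
Of the 9 members, 5 were matched in the promoter table (Abca1, Apoe, Plin2, Lipa and Pnpla2). Searched on both strands, the E-box CACGTG was found in the Abca1 window, 147 to 142 bases before the start, and in the Plin2 window, where it spans the start. That motif occurs in 7.15% of 32851 promoter windows of the same length. The nuclear receptor half-site AGGTCA lay 218 to 213 bases before the Plin2 start, as its reverse complement, and occurs in 16.3% of windows. Exact direct repeats of that half-site with a spacer of 4 bases (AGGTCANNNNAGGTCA, the LXR form, in 0.0152% of windows) or 1 base (AGGTCANAGGTCA, the PPAR form, in 0.0396%) matched none of the 5. A looser LXR form that includes the exact one, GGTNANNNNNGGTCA, was written after the exact form had matched no member. It lies 67 to 53 bases before the Abca1 start, as its reverse complement, and in 0.207% of all windows. The sterol element TCACNCCAC (1.24% of windows) and the lysosomal element GTCACGTGAC, which contains the E-box (0.326%), matched none of the 5. A match describes letters only, and its use in marrow was not measured.

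The table gives no read counts, so the depth of each library is unknown, and FPKM sums ran from 493683 to 848843. Low values step in whole reads, and the worth of 1 read relative to control replicate 1 was 1.52 and 1.89 in TBI+DEIX replicates 2 and 3, while no clear step was found in control replicate 3, TBI+DEIX replicate 1 and DEIX replicate 1. TBI+DEIX replicate 1 stood apart on the first principal component (38.3% of the variance, score 53.3, the next highest 21.5), and results that rest on it are given with and without it. Summed B lineage markers (12 of 12 reached 1 FPKM) ran from 419 to 503 FPKM in control, from 32.1 to 390 in TBI, from 8.30 to 192 in TBI+DEIX and from 66.4 to 104 in DEIX, and summed erythroid markers (13 of 14) stood at 283 in TBI+DEIX replicate 1 against a control range of 4831 to 7924. In bulk marrow, fewer cells of a type and less RNA per cell cannot be told apart.

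**Figure D1:**
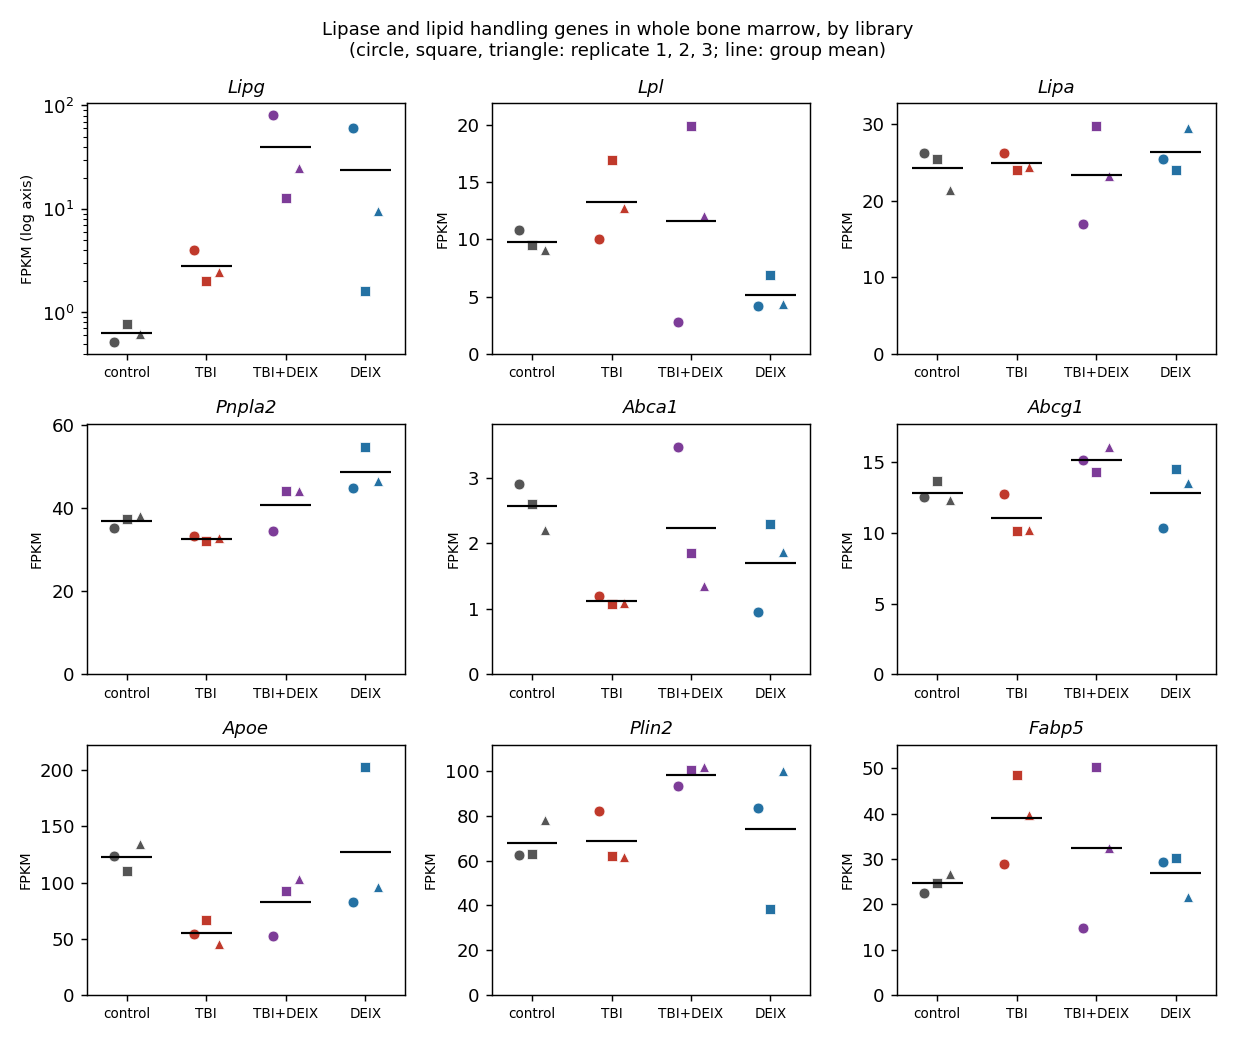
FPKM of the 9 genes in each of the 12 libraries, by group; circles, squares and triangles are replicates 1, 2 and 3, the line is the group mean, and the Lipg axis is logarithmic. Lipg lay between 0.515 and 0.775 FPKM in control and reached 81.3 in TBI+DEIX, whereas Lipa stayed between 17.0 and 29.7 in all 12 libraries.

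Lipg, the endothelial lipase gene (ENSMUSG00000053846.5, GRCm38, chromosome 18, 74939322 to 74961263, minus strand), was near the floor in control marrow and had its highest values with DEIX. It stood at 0.515, 0.775 and 0.620 FPKM in control replicates 1 to 3 and at 3.98, 2.02 and 2.44 in TBI. The TBI+DEIX libraries gave 81.3, 12.7 and 25.0 FPKM, and the DEIX libraries gave 60.5, 1.62 and 9.55. Control lay below every other group without overlap, and TBI lay below TBI+DEIX without overlap, whereas DEIX overlapped both TBI and TBI+DEIX. The group means were ordered control (0.637 ± 0.131 FPKM, SD, n = 3), TBI (2.81 ± 1.03), DEIX (23.9 ± 32.0) and TBI+DEIX (39.7 ± 36.6). Neither TBI and DEIX nor DEIX and TBI+DEIX, neighbours in that order, were separated beyond their spread. Without TBI+DEIX replicate 1 that group's mean was 18.9 ± 8.67 FPKM (n = 2).

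As a ratio of geometric means, Lipg stood at 4.30 times control in TBI, 15.6 times in DEIX and 47.1 times in TBI+DEIX. The TBI+DEIX ratio was 28.4 without its replicate 1 and 71.8 without its replicate 2. For DEIX, leaving out replicate 1 lowered the ratio to 6.27 and leaving out replicate 2 raised it to 38.3, and the TBI ratio lay between 3.53 and 4.96 when 1 library of either group was left out. On the log2(FPKM + 1) scale, which understates the change of low genes, the fitted difference was 1.19 (SE 0.92) for TBI against control, 2.87 for DEIX against control, 3.05 for TBI+DEIX against TBI and 4.24 for TBI+DEIX against control. The DEIX difference in irradiated mice minus that in unirradiated mice was 0.18 (SE 1.31), and its sign was not settled: it was -0.37 with a pseudocount of 0.1, -0.53 without TBI+DEIX replicate 1, -0.91 without DEIX replicate 2 and 1.36 without DEIX replicate 1. These comparisons share their control and TBI libraries and are not independent of each other. Lipg spread widely within the DEIX groups. Its highest DEIX library was 37.3 times its lowest, and its highest TBI+DEIX library was 6.38 times its lowest, against 1.51 times in control. Over all 12 libraries its FPKM ranged 158-fold, and by the range of FPKM + 1 it ranked 14 of the 10994 tested genes, whereas the next member, Lpl, ranked 372. Because Lipg was picked with results of these libraries known, the rank is a description and nothing is read from it.

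Endothelial and neutrophil markers were set beside Lipg. Of 12 endothelial markers 5 reached 1 FPKM anywhere, and Kdr, Emcn, Tek, Esam, Stab2, Flt4 and Cldn5 stayed below it in all 12 libraries. The summed level ran from 27.4 to 30.5 FPKM in control, from 18.7 to 30.3 in TBI, from 17.5 to 21.9 in TBI+DEIX and from 18.01 to 26.0 in DEIX. Summed markers of maturing neutrophils, taken without S100a8, S100a9 and Ngp because those are listed at 0 in some libraries, ran from 22058 to 30757 FPKM in control, from 26021 to 32297 in TBI, from 21720 to 53374 in TBI+DEIX and from 26440 to 37078 in DEIX. The lowest of the TBI+DEIX sums was in replicate 1, the library with the highest Lipg. The Lipg level tracked the first principal component of all tested genes, with r = 0.905 over 12 libraries and 0.870 over the 11 without TBI+DEIX replicate 1. The part of cell composition in the Lipg level was not tested.

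The 5 genes most like Lipg over the 12 libraries, by Pearson r of log2(FPKM + 1), were B4galt6 (0.979), Jak3 (0.977), Plscr1 (0.974), Fam20c (0.971) and Tgm1 (0.965). The libraries share their groups, so these r values are a description. Over the 11 libraries without TBI+DEIX replicate 1 they were 0.961 to 0.970. Jak3, a cytokine receptor kinase, stood at 42.1, 27.5 and 31.8 FPKM in TBI+DEIX and at 35.3, 16.0 and 21.1 in DEIX, against 18.1, 14.5 and 12.3 in TBI and 10.6 to 10.9 in control. Tgm1, a transglutaminase, stood at 12.7, 8.20 and 11.3 FPKM in TBI+DEIX and at 10.8, 2.30 and 4.96 in DEIX, against 3.69, 1.81 and 1.62 in TBI and 1.32 to 1.57 in control. For both genes the TBI libraries lay above control without overlap, and TBI replicate 1 stood above DEIX replicate 2. In each of the 5 genes, as in Lipg, replicate 1 was the highest library of the TBI+DEIX group and of the DEIX group, and DEIX replicate 2 was the lowest of its group. Lipg covered a far wider range than any of them.

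**Figure D2:**
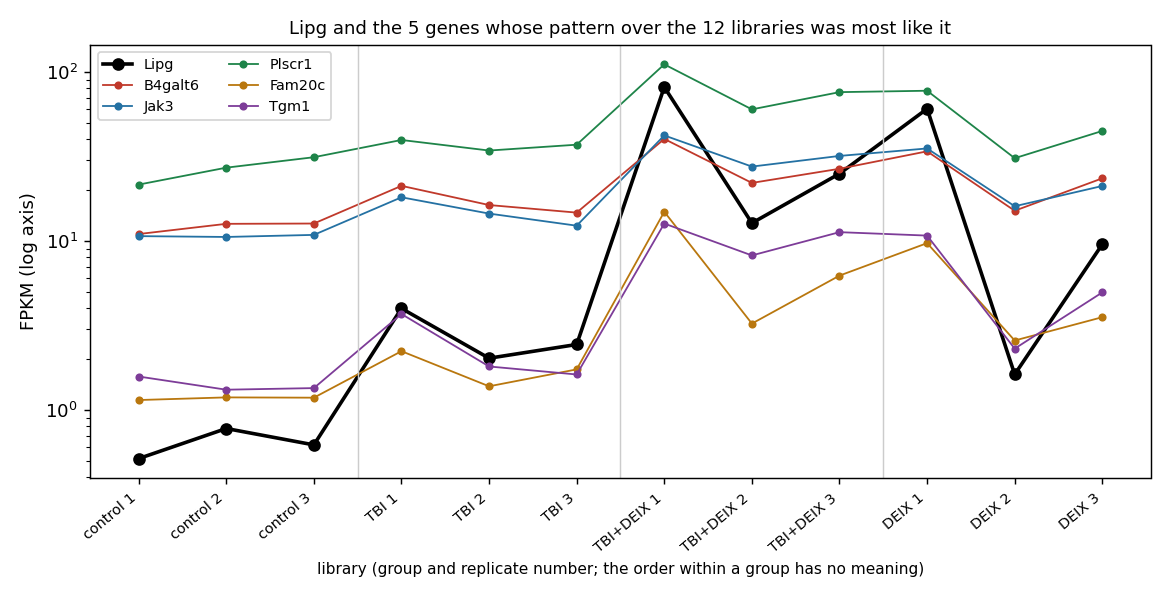
FPKM (log axis) of Lipg and of the 5 genes with the highest r to it, over the 12 libraries in group order; lines join values of one gene and imply no order of replicates. All 6 peak in TBI+DEIX replicate 1, where Lipg reached 81.3 FPKM and Plscr1 111, and DEIX replicate 2 is low in each.

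Among the other 8 members, none passed the test in any of the 5 comparisons (limma over all 10994 genes, Benjamini-Hochberg adjusted p under 0.05). In TBI against control, where 3.99% of all tested genes were called, 0 of 8 were called and 2 of 8 had an unadjusted p under 0.05 (18.1% of all genes). In TBI+DEIX against TBI, with 8.1% of all genes called, the counts were 0 and 3 (27.2%), and limma called no tested gene there when only those 2 groups were fitted (2015 at an unadjusted p under 0.05). In DEIX against control, with 7.24% called, they were 0 and 1 (24.7%), and in TBI+DEIX against control, with 30% called, they were 0 and 0 (41.6%). For the interaction, the DEIX difference in irradiated minus that in unirradiated mice, 0.2% of all genes were called and the counts were 0 and 2 (7.5%). The shares of all genes rest on single libraries: with 1 library left out the genes called ran from 153 to 1337 in TBI against control (439 with all libraries), from 5 to 2836 in TBI+DEIX against TBI (891), from 146 to 2394 in DEIX against control (796), from 2004 to 4232 in TBI+DEIX against control (3299) and from 4 to 331 for the interaction (22). The highest count came in each case without TBI+DEIX replicate 1. Because the members were chosen with results known, nothing is read from these counts.

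The libraries of the 8 genes were also compared for overlap. TBI and control did not overlap for 4 of 8 (1 higher and 3 lower, with 22% and 16.3% of all genes, or 38.2% in either direction), TBI+DEIX and TBI for 4 (4 higher and 0 lower, with 14.5% and 12.7%, or 27.2%), DEIX and control for 2 (1 higher and 1 lower, with 23.4% and 17.2%, or 40.6%) and TBI+DEIX and control for 3 (2 higher and 1 lower, with 23.9% and 21.1%, or 44.9%). The median difference of the 8 was -0.08 on the log2(FPKM + 1) scale in TBI against control (0.05 over all genes), 0.37 in TBI+DEIX against TBI (0.00315 over all genes), 0.00232 in DEIX against control (0.02) and 0.02 in TBI+DEIX against control (0.02). Several members missed the threshold by little, and some crossed it when 1 library was left out or when only the compared groups entered the fit. Those values are given gene by gene.

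**Figure D3:**
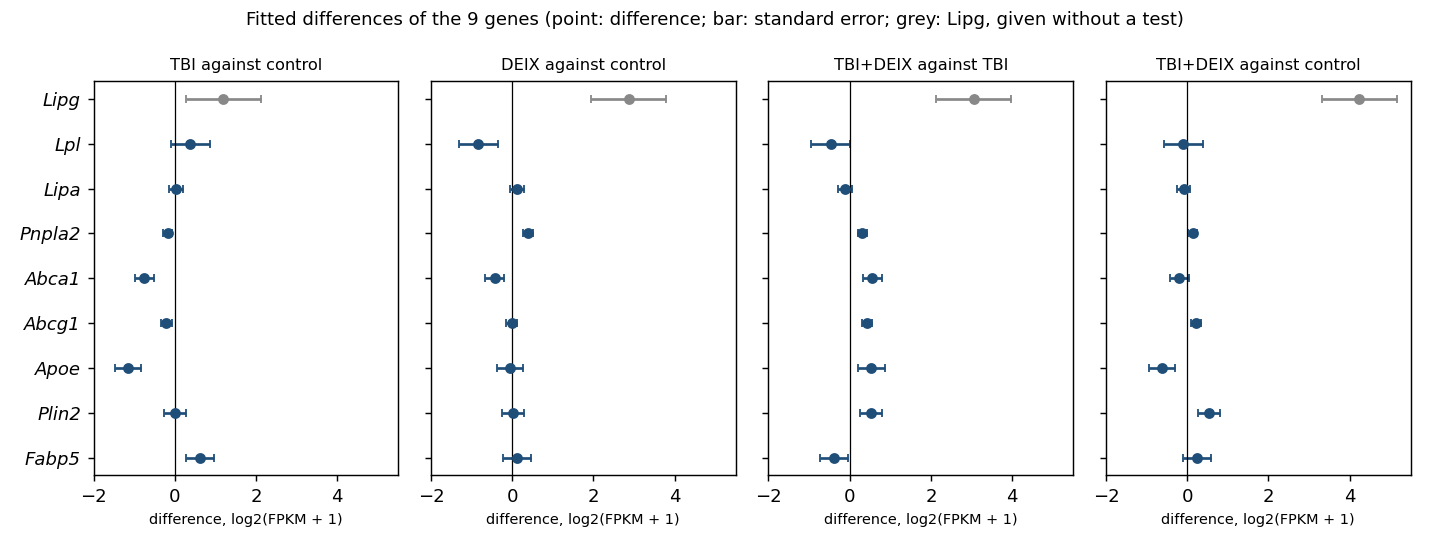
Fitted differences of the 9 genes in 4 comparisons, in log2(FPKM + 1); points are differences and bars 1 standard error, with Lipg in grey because it was not tested. Lipg lies furthest to the right in each panel, at up to 4.24, and Apoe and Abca1 lie furthest to the left in TBI against control, at -1.15 and -0.75.

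Lpl, the lipoprotein lipase gene (ENSMUSG00000015568.16), was lowest in DEIX without irradiation. Its levels were 10.8, 9.54 and 9.04 FPKM in control and 10.1, 17.0 and 12.7 in TBI. They were 2.78, 19.9 and 12.05 FPKM in TBI+DEIX and 4.19, 6.87 and 4.35 in DEIX. All DEIX libraries lay below all control libraries, while TBI+DEIX held both the lowest and the highest value of the study. The DEIX mean was 5.14 ± 1.501 FPKM (SD, n = 3) against 9.79 ± 0.90 in control, and control, TBI+DEIX (11.6 ± 8.58) and TBI (13.3 ± 3.49) overlapped. The difference between DEIX and control was -0.84 (SE 0.48) and did not pass in limma over all genes (adjusted p = 0.310). It passed when only those 2 groups were fitted (adjusted p = 0.0127) and without TBI+DEIX replicate 1 (adjusted p = 0.0252), since that library enters the shared estimate of the spread. It passed in 3 of 22 alternatives, with adjusted p from 0.00594 (array weights) to 0.546 (without DEIX replicate 3). In irradiated mice the DEIX difference was -0.47 (adjusted p = 0.573), and it was 0.24 without that library. Its closest pattern was that of Ckb, a creatine kinase gene (r = 0.928 over 12 libraries, and 0.889 over the 11 without TBI+DEIX replicate 1).

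Lipa, the lysosomal lipase gene (ENSMUSG00000024781.16), had the smallest group-to-group range of the 8 genes in the fit. It stood at 26.2, 25.4 and 21.3 FPKM in control and at 26.3, 24.0 and 24.4 in TBI. In TBI+DEIX it stood at 17.0, 29.7 and 23.2 FPKM and in DEIX at 25.4, 24.0 and 29.5. Every pair of groups overlapped, and group means lay between 23.3 ± 6.38 FPKM in TBI+DEIX and 26.3 ± 2.84 in DEIX. The lowest library was again TBI+DEIX replicate 1, and without it that mean was 26.5 ± 4.64 FPKM (n = 2). The 4 fitted differences between groups lay between -0.12 and 0.11 (SE 0.17), and the lowest limma adjusted p was 0.684. Their signs turned under other settings.

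Pnpla2, the adipose triglyceride lipase gene (ENSMUSG00000025509.15, GRCm38, chromosome 7, 141455198 to 141460743, plus strand), was higher with DEIX than in the matched group without it, by little. Its levels were 35.2, 37.4 and 38.1 FPKM in control and 33.2, 32.0 and 32.8 in TBI. They were 34.5, 44.1 and 44.1 FPKM in TBI+DEIX and 45.0, 54.8 and 46.5 in DEIX. All DEIX libraries lay above all control libraries, and all TBI+DEIX libraries above all TBI libraries, the closest being TBI+DEIX replicate 1 at 34.5 against TBI replicate 1 at 33.2. Means ran from 32.7 ± 0.609 FPKM in TBI through 36.9 ± 1.51 in control and 40.9 ± 5.55 in TBI+DEIX to 48.8 ± 5.31 in DEIX, and of these neighbours only control and TBI+DEIX overlapped. The difference between DEIX and control was 0.39 (SE 0.11, limma adjusted p = 0.0617), and it passed without TBI+DEIX replicate 1 (adjusted p = 0.00976) and with only those groups fitted (0.0298). On the TPM scale it was 0.24 (adjusted p = 0.563), and it passed in 3 of 22 alternatives, the lowest adjusted p being 0.00165 with array weights. For TBI+DEIX against TBI it was 0.31 (adjusted p = 0.110), and 0.42 without that library (adjusted p = 0.0121). There it was 0.18 on the TPM scale (adjusted p = 0.671), its adjusted p was 0.273 with only those groups fitted, and it passed in 2 of 22 alternatives. The 2 genes most like Pnpla2 were Syt11 (r = 0.972) and Eepd1 (r = 0.966) over 12 libraries, and 0.972 and 0.975 over the 11.

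Abca1, which passes cholesterol to lipid-poor apolipoprotein (ENSMUSG00000015243.4, chromosome 4, 53030787 to 53159895, minus strand), was lowest in TBI. It stood at 2.90, 2.597 and 2.201 FPKM in control and at 1.19, 1.07 and 1.09 in TBI. With DEIX it stood at 3.47, 1.86 and 1.35 FPKM in irradiated mice and at 0.957, 2.29 and 1.87 in unirradiated mice. TBI lay below control and below TBI+DEIX without overlap, while DEIX spanned a range that overlapped all 3 other groups. In the order of means TBI (1.12 ± 0.0648 FPKM), DEIX (1.71 ± 0.683), TBI+DEIX (2.23 ± 1.11) and control (2.57 ± 0.352), each neighbour overlapped the next. The geometric mean in TBI was 0.439 times that in control, and the fitted difference of -0.75 (SE 0.23) did not pass in limma over all genes (adjusted p = 0.118). It passed with only those groups fitted (adjusted p = 0.00355) and without TBI+DEIX replicate 1 (0.0198). It passed in 3 of 21 alternatives, with adjusted p from 0.000129 (array weights) to 0.298 (TPM scale). Against TBI, TBI+DEIX differed by 0.55 (adjusted p = 0.158). Without replicate 1, the highest Abca1 library of the study, that difference was 0.29 and the group mean 1.60 ± 0.359 FPKM (n = 2). Its promoter window is the one with the E-box and the looser LXR form. The gene most like it was Lrig2 (r = 0.906 over 12 libraries, and 0.866 over the 11).

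Abcg1, which loads cholesterol onto high-density lipoprotein (ENSMUSG00000024030.7), was highest in TBI+DEIX. Its levels were 12.5, 13.6 and 12.3 FPKM in control and 12.7, 10.1 and 10.2 in TBI. They were 15.2, 14.3 and 16.1 FPKM in TBI+DEIX and 10.3, 14.5 and 13.5 in DEIX. TBI+DEIX lay above control and above TBI without overlap, and DEIX overlapped all 3 other groups. Its mean was 15.2 ± 0.907 FPKM in TBI+DEIX and 11.03 ± 1.47 in TBI, with DEIX at 12.8 ± 2.21 and control at 12.8 ± 0.701. The difference of TBI+DEIX from TBI was 0.43 (SE 0.13) and missed the limma threshold (adjusted p = 0.0636). It passed when TBI replicate 1 (0.53, adjusted p = 0.0445), TBI+DEIX replicate 1 (adjusted p = 0.0470) or DEIX replicate 1 (adjusted p = 0.0440) was left out, and with array weights (0.00424), but in none of the other 18 of 22 alternatives. On the TPM scale it was 0.32 (adjusted p = 0.501), and the adjusted p was 0.169 with only those groups fitted, 0.192 without TBI replicate 2 and 0.231 without TBI replicate 3. The gene most like it was Ublcp1, at r = 0.841 over 12 libraries, the lowest such value of the 9 members, and 0.858 over the 11.

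Apoe (ENSMUSG00000002985.16, chromosome 7, 19696109 to 19699188, minus strand), the apolipoprotein E gene and the member with the highest single value, was lower in TBI than in control. Its levels were 124, 111 and 134 FPKM in control and 53.7, 66.4 and 45.5 in TBI. They were 52.5, 92.8 and 103 FPKM in TBI+DEIX and 82.5, 203 and 96.4 in DEIX. TBI and TBI+DEIX both lay below control without overlap and overlapped each other, and DEIX overlapped control. The TBI mean of 55.2 ± 10.5 FPKM set against 123 ± 11.8 in control gave a ratio of geometric means of 0.445. The difference was -1.15 (SE 0.32) and missed the limma threshold over all genes (adjusted p = 0.0804). It passed with only those groups fitted (adjusted p = 0.00247), without TBI+DEIX replicate 1 (0.0218) and without DEIX replicate 2 (0.0244). It passed in 4 of 22 alternatives, with adjusted p from 0.000720 (array weights) to 0.255 (without control replicate 3). The TBI+DEIX mean of 82.8 ± 26.7 FPKM differed from TBI by 0.54 (adjusted p = 0.317), and without replicate 1 it was 97.9 ± 7.23 (n = 2). DEIX replicate 2, with 203 FPKM, also had the highest summed erythroid markers of its group, 11407 FPKM against 2247 and 1936, and their part in the Apoe level was not tested.

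Macrophages are a known source of Apoe, so their markers were set beside it. All 16 macrophage markers reached 1 FPKM, and their sum ran from 426 to 499 FPKM in control, from 317 to 453 in TBI, from 382 to 625 in TBI+DEIX and from 371 to 440 in DEIX. The C1qa level alone ran from 9.23 to 43.9 FPKM over the 12 libraries. The TBI and control sums overlapped. The part of macrophage content in the Apoe level was not tested.

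Plin2, the lipid droplet coat gene (ENSMUSG00000028494.12, chromosome 4, 86648386 to 86670060, minus strand), was highest and most even in TBI+DEIX. It stood at 62.7, 63.0 and 78.3 FPKM in control and at 82.5, 61.9 and 61.7 in TBI. With DEIX it stood at 93.4, 100.4 and 102 FPKM in irradiated mice and at 83.8, 38.6 and 100.1 in unirradiated mice. TBI+DEIX lay above control and TBI without overlap, and DEIX held the lowest library of the study and one level with TBI+DEIX. Control (68.0 ± 8.91 FPKM), TBI (68.7 ± 11.96), DEIX (74.1 ± 31.9) and TBI+DEIX (98.6 ± 4.50) followed each other in that order, each overlapping the next. The TBI+DEIX difference was 0.54 from control (SE 0.28, limma adjusted p = 0.172) and 0.53 from TBI (adjusted p = 0.255). Without DEIX replicate 2, the low library, both passed (adjusted p = 0.0183 and 0.0437), and with only control and TBI+DEIX fitted the first passed (0.0301). They passed in 3 and 2 of 22 alternatives, with adjusted p of up to 0.370 (TPM scale) and 0.524 (without TBI replicate 3). Of all genes, Slc25a20, the mitochondrial carrier of acylcarnitine, was most like Plin2 (r = 0.957 over 12 libraries, and 0.955 over the 11). Among the members the closest to Lipg in pattern was Plin2 (r = 0.644, and 0.630 over the 11 libraries without TBI+DEIX replicate 1).

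Fabp5, a fatty acid carrier gene (ENSMUSG00000027533.10), was highest in irradiated groups, with wide spread. Its levels were 22.5, 24.8 and 26.6 FPKM in control and 28.9, 48.5 and 39.7 in TBI. They were 14.8, 50.2 and 32.4 FPKM in TBI+DEIX and 29.2, 30.3 and 21.5 in DEIX. TBI lay above control without overlap, and every neighbouring pair in the order of means overlapped, from control (24.6 ± 2.04 FPKM) through DEIX (27.0 ± 4.78) and TBI+DEIX (32.5 ± 17.7) to TBI (39.0 ± 9.81). The difference of TBI from control was 0.62 (SE 0.34, limma adjusted p = 0.382). For TBI+DEIX against control it was 0.23 (adjusted p = 0.644), but without TBI+DEIX replicate 1 it was 0.69 and passed (adjusted p = 0.0351), as in 2 of 22 alternatives, with adjusted p of up to 0.863 (TPM scale, difference 0.11). The 5 genes most like Fabp5 were Mthfd2 (r = 0.927), Cyp51 (0.912), Prelid3b (0.906), Fdft1 (0.893) and Pmvk (0.892) over 12 libraries, and 0.914, 0.869, 0.891, 0.823 and 0.827 over the 11, in the same order.

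How the members varied together was described over the 12 libraries, which share groups and the library that stands apart. Over all 12, Lpl and Fabp5 ran most closely in parallel (r = 0.822, and 0.725 without TBI+DEIX replicate 1), and Pnpla2 and Apoe followed (0.701, and 0.678). Abca1 and Fabp5 ran in opposite directions (r = -0.67, and -0.52 without that library). Abca1 and Apoe, both low in TBI, gave r = 0.391, which was 0.757 without that library, then the highest of all pairs of members. Abcg1 gave r = 0.595 with Abca1 (0.520 without it) and 0.382 with Apoe (0.585 without it).

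The rest of the pathway was described with 7 lists of 164 further symbols, of which 163 matched a gene of the table (all but Arl7) and 127 were tested. In TBI against control 5 of 127 were called (3.94%, against 3.99% of all genes), in TBI+DEIX against TBI 8 (6.3%, against 8.1%), in DEIX against control 16 (12.6%, against 7.24%) and in TBI+DEIX against control 44 (34.6%, against 30%). On the TPM scale the shares lay near those of all genes, at 2.36% against 2.57% in DEIX against control and 16.5% against 16.2% in TBI+DEIX against control, and without S100a8, S100a9 and Ngp in that scaling they were 6.3% against 3.81% and 25.2% against 23.2%. None was called for the interaction by limma (0.2% of all genes were), and 10 of 127 had an unadjusted p under 0.05, where 7.5% of all genes did. Of the partners of the secreted lipases, 8 were tested, and Furin alone rose in TBI+DEIX against TBI and in DEIX against control (12.5% each, against 8.1% and 7.24% of all genes called, or 4.69% and 4.52% called higher), while 2 rose and 1 fell in TBI+DEIX against control (37.5%, against 30%). Gpihbp1, the capillary anchor of lipoprotein lipase, stayed at or below 0.539 FPKM and was not tested. Angptl4, an inhibitor of that lipase, stood at 1.66 to 1.87 FPKM in control and 1.04 to 1.24 in DEIX without passing (difference -0.39, limma adjusted p = 0.0783). Lmf1, a chaperone that folds both enzymes, fell in TBI+DEIX against control by 0.95 (adjusted p = 0.00255), from 5.72, 5.48 and 6.84 FPKM to 1.71, 2.83 and 3.55. Furin, a protease that cleaves lipoprotein lipase and endothelial lipase, rose in DEIX against control by 0.66 (adjusted p = 0.00390), from 26.1, 26.1 and 26.8 FPKM to 42.0, 42.2 and 42.4, and lost that call on the TPM scale (0.184). Its call in TBI+DEIX against TBI was lost on the TPM scale (0.163, or 0.0549 without S100a8, S100a9 and Ngp), with only those groups fitted (0.144) and without TBI replicate 3 (0.0648). Rescaling to TPM moved the median difference of all genes in DEIX against control from 0.02 to -0.12 and in TBI+DEIX against TBI from 0.00315 to -0.12.

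**Figure D4:**
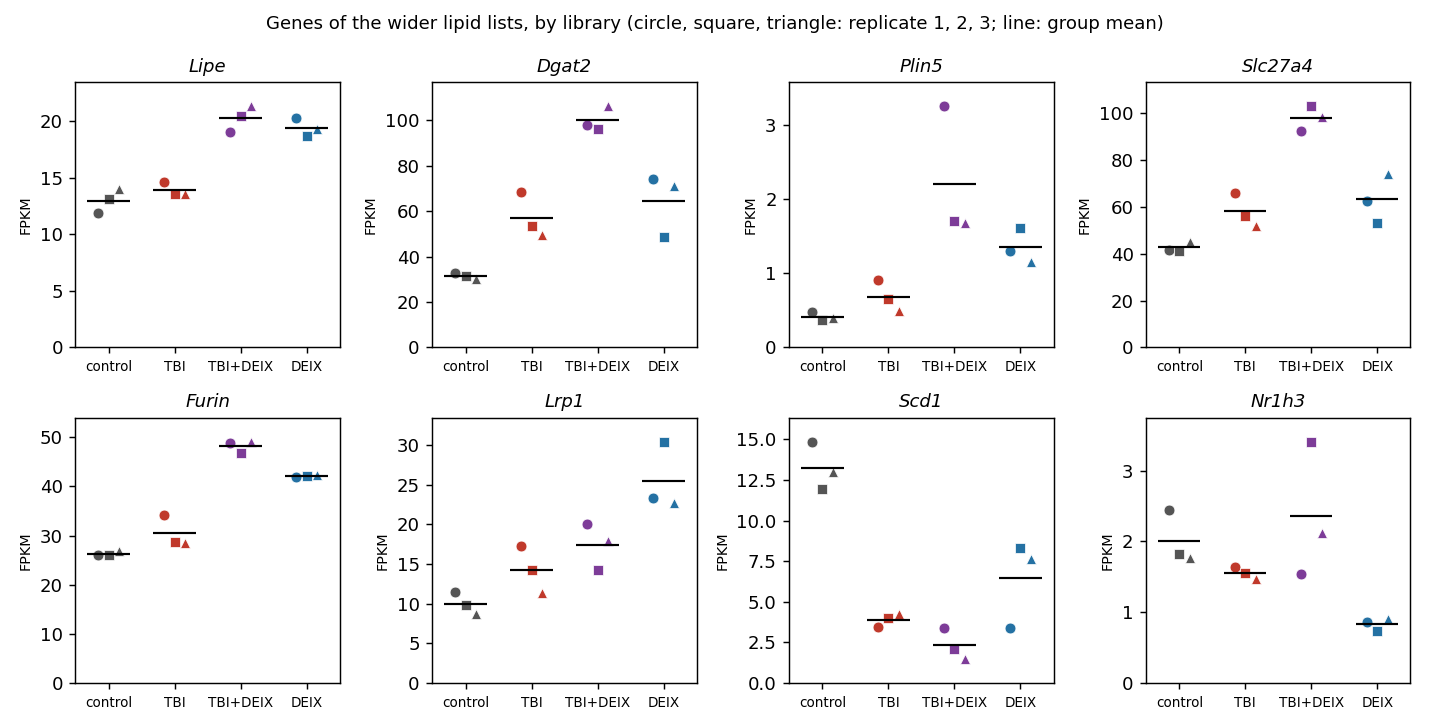
FPKM of 8 further lipid genes in each library, by group; circles, squares and triangles are replicates 1, 2 and 3 and lines are group means. Lipe lies at 18.7 to 21.3 FPKM in both DEIX-treated groups and at 11.9 to 14.6 in the others, and Scd1 lies highest in control.

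Among intracellular lipases, 18 were tested, and none was called lower. In DEIX against control 2 rose (11.1%, against 4.52% of all genes called higher and 7.24% in either direction), in TBI+DEIX against TBI 1 (5.56%, against 4.69% and 8.1%) and in TBI+DEIX against control 5 (27.8%, against 16.9% and 30%). The last 2 shares lay between those of all genes called higher and called in either direction. Lipe, the hormone-sensitive lipase that acts after Pnpla2, stood at 11.9, 13.1 and 14.0 FPKM in control and at 14.6, 13.6 and 13.6 in TBI. It stood at 19.1, 20.5 and 21.3 FPKM in TBI+DEIX and at 20.3, 18.7 and 19.3 in DEIX, so the libraries with and without DEIX did not overlap. Its rise was 0.55 in unirradiated mice (SE 0.09, adjusted p = 0.00753) and 0.51 in irradiated mice (adjusted p = 0.0170), and the interaction was -0.04 (SE 0.12). On the TPM scale both calls were lost (adjusted p = 0.285 and 0.294), and the second was also lost on that scale without S100a8, S100a9 and Ngp (0.0848). It was lost when TBI replicate 3 (0.0849) or TBI+DEIX replicate 3 (0.0596) was left out and with only those groups fitted (0.144). Abhd5, the coactivator of Pnpla2, rose in TBI+DEIX against control by 1.02 (adjusted p = 0.00448), from 41.2 to 43.6 FPKM to 68.0, 90.5 and 105. Lipe is also 1 of the 12 adipocyte markers, of which 6 reached 1 FPKM (Lipe, Adipor2, Fabp4, Retn, Car3 and Adipoq). The sum of the 12 ran in parallel with Lipe, from 71.4 to 72.6 FPKM in control and 75.3 to 81.4 in TBI to 82.6 to 86.7 in DEIX and 88.9 to 102 in TBI+DEIX. Without Lipe the sums were 57.5 to 59.7, 61.7 to 66.8, 62.4 to 68.03 and 69.8 to 81.1 FPKM in the same order. Most of that level was Adipor2, a widely expressed adiponectin receptor, at 47.8 to 49.6 FPKM in control and 65.4 to 67.5 in TBI+DEIX. Adipoq, the adipocyte hormone gene, reached 2.74 FPKM, in TBI, and stayed at or below 1.19 in TBI+DEIX and 0.426 in DEIX. Lep, Plin1, Cidec, Aqp7 and Cfd stayed at or below 0.195 FPKM and Pnpla3 at or below 0.840. The part of adipocyte content in the Lipe level was not tested.

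Of the droplet and triglyceride synthesis list, 19 were tested, and none was called lower. In TBI against control 1 was called higher (5.26%, against 0.891% of all genes called higher and 3.99% in either direction) and in TBI+DEIX against TBI 2 (10.5%, against 4.69% and 8.1%). In DEIX against control 3 were called higher (15.8%, against 4.52% and 7.24%) and in TBI+DEIX against control 7 (36.8%, against 16.9% and 30%). Dgat2, which makes triglyceride, was called in all 4, with levels of 32.9, 31.3 and 30.4 FPKM in control, 68.6, 53.3 and 49.7 in TBI, 97.97, 96.2 and 106 in TBI+DEIX and 74.2, 48.8 and 71.1 in DEIX. It rose by 0.83 in TBI and by 0.99 in DEIX against control (limma adjusted p = 0.0167 and 0.00753), by 0.81 in TBI+DEIX against TBI (0.0201) and by 1.64 in TBI+DEIX against control (0.000143). The call in TBI was lost without any 1 control replicate or TBI replicate 1 (adjusted p 0.0577 to 0.0796), and that in TBI+DEIX against TBI without TBI replicate 2 or 3 or TBI+DEIX replicate 3 (0.0548 to 0.103), on the TPM scale (0.0996) and with only those groups fitted (0.144). Plin5, a coat protein related to Plin2, rose in TBI+DEIX against control by 1.15 (adjusted p = 0.00109), from 0.376 to 0.471 FPKM to 3.24, 1.70 and 1.68. The fatty acid transporter Slc27a4 rose in the same comparison by 1.18 (adjusted p = 0.000229), from 41.2 to 45.2 FPKM to 92.2, 103 and 98.2.

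Within the efflux and LXR list 20 were tested, and limma called none in TBI against control, where 3.99% of all genes were called, or in TBI+DEIX against TBI, where 8.1% were. At an unadjusted p under 0.05 there were 5 of 20 in the first (18.1% of all genes) and 3 of 20 in the second (27.2%). In DEIX against control and in TBI+DEIX against control 2 rose and 2 fell, and this share of 20% stood against 7.24% of all genes in the first and 30% in the second. In DEIX against control Abca7 and Scarb1 rose, and Nr1h3 and Mylip fell. The rise of Scarb1 was 0.54 (limma adjusted p = 0.0140). It was lost on the TPM scale (0.294, or 0.0813 without S100a8, S100a9 and Ngp) and without control replicate 2 or 3 or DEIX replicate 1 (0.0567 to 0.0708). Nr1h3, the LXR alpha gene, stood at 2.45, 1.82 and 1.77 FPKM in control and at 0.865, 0.736 and 0.907 in DEIX. That fall of 0.71 passed narrowly (limma adjusted p = 0.0366) and was lost without any 1 control or DEIX replicate or TBI replicate 2 (0.0590 to 0.125). It was also lost with no filter on low values (0.0520) and with the replicate block (0.0621). Its own DEIX difference was opposite in sign in irradiated mice, where TBI+DEIX stood at 1.54, 3.41 and 2.12 FPKM (0.36, adjusted p = 0.220), but the interaction of 1.06 did not pass (adjusted p = 0.142). Mylip, an LXR target, fell in DEIX against control by 0.59 (adjusted p = 0.0461, lost when any of 9 libraries was left out, at 0.0508 to 0.178, and under 4 other settings, among them the TPM scale at 0.0676). Soat1, which esterifies cholesterol for storage, differed by 0.82 in DEIX against control without passing (adjusted p = 0.0530), and Srebf1, another LXR target, by 0.24 (0.494).

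The cholesterol synthesis and uptake list held 26 tested genes, 25 of which had a difference above 0 in TBI against control, with a median of 0.39 against 0.05 over all genes. In TBI against control and in DEIX against control 3 rose and 0 fell (11.5% each, against 3.99% and 7.24% of all genes). In TBI+DEIX against TBI Insig2 rose, and Acat2 and Dhcr7 fell (11.5%, against 8.1%). The falls were 0.61 and 0.55 (limma adjusted p = 0.0339 and 0.0199). All 3 calls were lost with only those groups fitted (0.144 to 0.159). In TBI+DEIX against control 12 rose and 2 fell (53.8%, against 30% of all genes). Lrp1, a receptor for apolipoprotein E and for lipoprotein lipase, rose in DEIX against control by 1.26 (adjusted p = 0.00447), from 11.5, 9.82 and 8.66 FPKM to 23.3, 30.4 and 22.7. Of the 12 fatty acid synthesis genes tested, 2 rose and 1 fell in TBI+DEIX against control (25%, below the 30% of all genes). Scd1, the fatty acid desaturase and a known LXR target, fell in TBI against control by 1.54 (adjusted p = 0.0104, and 0.0547 without control replicate 1). In TBI+DEIX against control it fell by 2.14 (adjusted p = 0.000453). Its levels were 14.8, 11.9 and 13.001 FPKM in control, 3.46, 4.00 and 4.23 in TBI, 3.40, 2.10 and 1.45 in TBI+DEIX and 3.40, 8.28 and 7.66 in DEIX. Its fall of 1.01 in DEIX against control passed narrowly (adjusted p = 0.0493) and was lost under 16 alternatives (0.0517 to 0.146). Cd36, a fatty acid receptor, stood at 6.11 to 7.88 FPKM in control and 1.01 to 3.70 in TBI+DEIX. That fall of 1.45 passed narrowly (adjusted p = 0.0463) and was lost when any of 9 libraries was left out (0.0582 to 0.123) and with no filter on low values (0.0828). Of the 24 tested genes of fatty acid uptake, binding and oxidation, 4 rose and 4 fell in that comparison (33.3%, near the 30% of all genes).

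**Figure D5:**
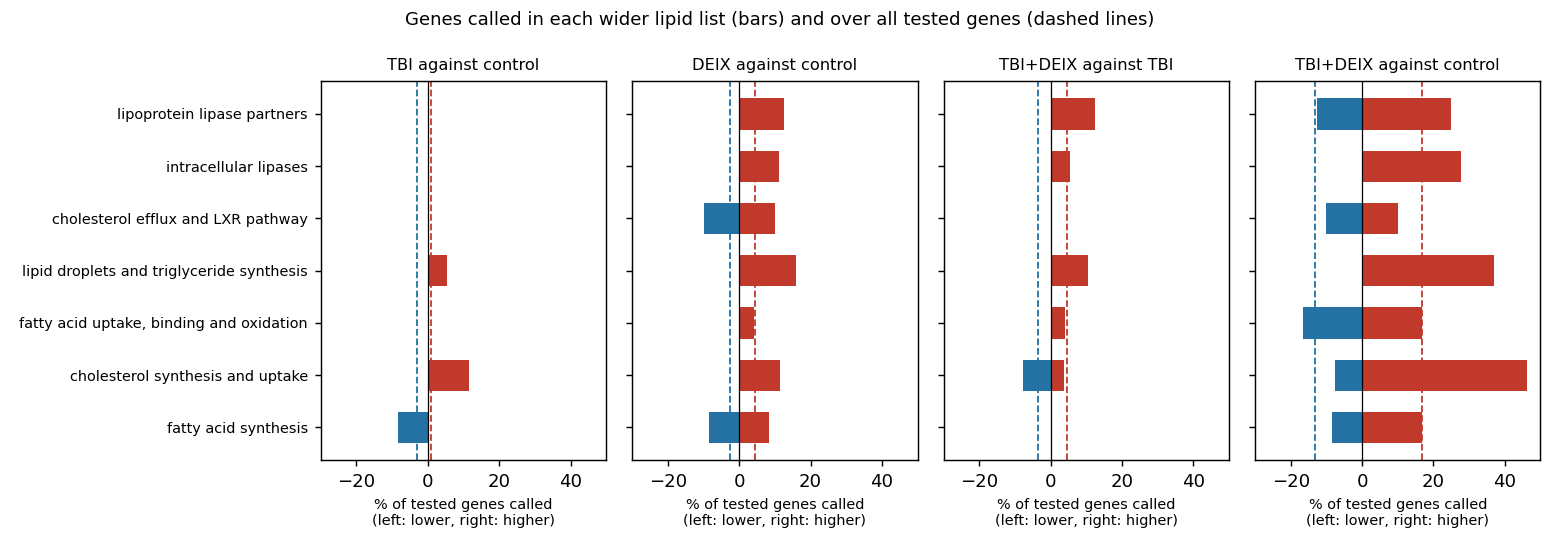
Percent of the tested genes of each of 7 lipid lists that were called lower (left) or higher (right) in 4 comparisons, with dashed lines for the same shares over all tested genes. In TBI+DEIX against control the cholesterol synthesis and uptake list reaches 53.8% in both directions together, against 30% of all genes.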

How the data were processed

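Whole marrow RNA of 12 libraries was analysed from 1 table of FPKM values per gene, which the authors deposited. The submitters' processing notes name STAR 2.6, Cufflinks 2.2.1 and mm10, without saying what each did. Libraries were directional and made from total RNA for messenger RNA, per the labels' protocols. Identifiers (21853 of 21853) were matched to GENCODE vM21 on GRCm38 for symbols and 1-based coordinates.

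Values were tested as log2(FPKM + 1) for 10994 genes with at least 1 FPKM in at least 3 libraries, with limma 3.58.1 in R 4.3.3 (lmFit, eBayes with trend) in 1 model of 4 group means with 8 residual degrees of freedom. Calls needed an adjusted p (Benjamini-Hochberg, over all tested genes) under 0.05. The procedure was tested on simulated data. FPKM gives no depth, so no count model or counting interval was used. S100a8, S100a9 and Ngp were listed at 0 in 2, 4 and 5 libraries.

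The members and lists were chosen with earlier results of these data known. Named beside the 9 members were 11 pathway genes whatever they showed, up to 3 called genes of largest difference per list and comparison, and the 5 genes of highest r with a member. Some genes that this rule picks are not reported here. Alternatives were other pseudocounts, filters and scalings, fits of the compared groups only, array weights, a replicate block and each library left out.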

Additional observations from a re-analysis of the deposited data

Results flagged for a closer look

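Abca1, a cholesterol exporter, stood out because DEIX went with opposite signs in irradiated and unirradiated mice: all TBI+DEIX libraries (3.47, 1.86 and 1.35 FPKM) lay above the TBI mean of 1.12, and all DEIX libraries (0.957, 2.29 and 1.87) lay below the control mean of 2.57. The interaction was 0.98 on the log2(FPKM + 1) scale (SE 0.33) and did not pass in limma over all genes (adjusted p = 0.444). It lay between 0.72 and 1.18 when 1 library was left out.

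Abcg1, the other exporter, stood out for irradiation: all TBI libraries (12.7, 10.1 and 10.2 FPKM) lay below the control mean of 12.8, and all TBI+DEIX libraries (15.2, 14.3 and 16.1) lay above the DEIX mean of 12.8. Library by library, both pairs of groups overlapped. TBI replicate 1 (12.7) lay above control replicates 1 and 3 (12.5 and 12.3), and DEIX replicate 2 (14.5) lay above TBI+DEIX replicate 2 (14.3). The interaction was 0.45 (SE 0.18, limma adjusted p = 0.595), with 0.31 to 0.55 when 1 library was left out. With array weights both interactions passed in limma (adjusted p = 0.0314 for Abca1 and 0.0347 for Abcg1). That setting also raised the interaction calls over all genes from 22 to 532. The interactions passed in 1 of 20 alternatives for Abca1 and in 1 of 21 for Abcg1. The cause of either pattern was not tested.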

How the results depend on the processing

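The count of the 8 tested members called, 0 in each comparison (TBI against control, then DEIX in irradiated and in unirradiated mice, then TBI+DEIX against control, then the interaction), was raised by fitting only the compared groups (2 in TBI against control, 2 in DEIX against control, 1 in TBI+DEIX against control) and by array weights (6, 3 and 5, with 4 in TBI+DEIX against TBI and 2 for the interaction). Leaving out 1 library gave 0 to 2 in the first 3 comparisons, 0 to 1 in TBI+DEIX against control and 0 for the interaction.

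For the wider lists, TBI against control went from 5 called genes to 3 with a pseudocount of 0.1, a mean FPKM of at least 5, equal medians or the replicate block, to 8 without a filter, 2 on the TPM scale, 28 with only the compared groups and 70 with array weights. TBI+DEIX against TBI went from 8 to 0 on the TPM scale or with only the compared groups, 3 on the TPM scale without S100a8, S100a9 and Ngp, and 48 with array weights. DEIX against control went from 16 to 3 and 8 on those TPM scales, 33 with only the compared groups, 64 with array weights and 9 with the replicate block. TBI+DEIX against control went from 44 to 21 on the TPM scale and 79 with array weights, and the interaction from 0 to 9 with array weights. Leaving out 1 library gave 0 to 25, 0 to 29, 4 to 37, 27 to 57 and 0 to 5 in the same order. Of the 49 calls of these lists that the naming rule picks, 12 were kept under all settings.

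Signs of members' differences turned under some settings. Array weights gave Lpl 0.0089 in TBI+DEIX against TBI and 0.64 against control, Lipa -0.055 in TBI and 0.13, 0.071 and 0.034 in TBI+DEIX against TBI, against control and for the interaction, Pnpla2 0.090 for the interaction and Plin2 -0.0050 in TBI. Equal medians gave Lipa -0.0039 and Plin2 -0.031 in TBI. The TPM scale gave Lipa -0.037, Plin2 -0.13 and Fabp5 -0.031 in DEIX against control, and Plin2 -0.018 without S100a8, S100a9 and Ngp. Leaving out 1 library gave, in TBI+DEIX against TBI, Lpl -0.99 to 0.24, Lipa -0.31 to 0.077 and Fabp5 -0.77 to 0.079. In TBI+DEIX against control it gave Lpl -0.62 to 0.62, Lipa -0.27 to 0.11, Abca1 -0.46 to 0.0085 and Fabp5 -0.15 to 0.69. In DEIX against control it gave Abcg1 -0.11 to 0.12, Apoe -0.45 to 0.19 and Plin2 -0.25 to 0.43. In TBI against control it gave Lipa -0.052 to 0.091 and Plin2 -0.13 to 0.11, and for the interaction Lpl -0.16 to 1.08 and Pnpla2 -0.14 to 0.034. The cause was not tested.

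Over all genes, 439, 891, 796, 3299 and 22 were called in the 5 comparisons, in the order of the lists. The counts were 1417, 0, 2057 and 2181 with only the compared groups, 4218, 4488, 4508, 6187 and 532 with array weights, and 253, 157, 282 and 1785 on the TPM scale (492 in the second and 419 in the third without S100a8, S100a9 and Ngp). A mean FPKM of at least 5 gave 134 and 7 in the first and the interaction, no filter gave 675 and 37, and a pseudocount of 0.1 gave 11 for the interaction. With 1 library left out the lowest counts were 153 (control replicate 1), 5 (TBI replicate 3), 146 and 2004 (control replicate 2) and 4 (TBI replicate 2), and the highest, all without TBI+DEIX replicate 1, were 1337, 2836, 2394, 4232 and 331. Over all tested genes, same-numbered libraries did not deviate together (median r -0.066 over 18 pairs, 3 above 0.1), so the numbers were not taken to pair them. Lipg by itself ran from high to low as replicate 1, 3, 2 in TBI, TBI+DEIX and DEIX, but as 2, 3, 1 in control. The SE of its differences between groups was 0.705 with the replicate block and 0.923 without it. A fit with the replicate block called 378, 474, 640, 3000 and 20 genes. It called 0 of the 8 members. FPKM without counts leaves the precision of low genes such as Abca1 unknown.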

Other observations

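Pparg, a nuclear receptor of fat storage, did not pass in any comparison and varied widely between the DEIX libraries. It stood at 0.612 FPKM in TBI+DEIX replicate 1 and 0.651 in DEIX replicate 1, where Lipg was 81.3 and 60.5, and at 1.17 in DEIX replicate 3, where Lipg was 9.55. In TBI+DEIX replicates 2 and 3, where Lipg was 12.7 and 25.0, Pparg stood at 2.96 and 2.62 FPKM, within the control range of 2.36 to 3.16. In DEIX replicate 2, where Lipg was 1.62, Pparg reached 3.38 FPKM and Cd36 reached 14.9.

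The acute-phase gene Saa3 and the nitric oxide synthase gene Nos2 are given as values, chosen after their values were seen. Saa3 stood at 0.254 to 0.501 FPKM in control, at 1.56, 0.647 and 0.438 in TBI, at 277, 1.99 and 10.6 in TBI+DEIX and at 36.0, 4.43 and 0.486 in DEIX. Nos2 stood at 9.69, 0.666 and 1.36 FPKM in TBI+DEIX and at 2.23, 0.122 and 0.272 in DEIX, and at or below 0.0974 in control and TBI. As with Lipg, the highest library was TBI+DEIX replicate 1 and the next DEIX replicate 1.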
